A study of Mus musculus with 6 samples.

Results

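Necroptosis and death receptor genes were read in RNA-seq libraries of intestinal tissue from mice with colitis induced by the epithelium-injuring polymer dextran sulfate sodium (DSS). The 10 genes are Tnfrsf1a, Fas, Fadd, Casp8, Cflar, Ripk1, Ripk3, Mlkl, Zbp1 and Aim2. They were chosen by their function, as rows of the deposited count table whose Ensembl identifier carries that symbol, and not by a threshold on their values. Earlier results of these data were known when they were chosen, which limits any comparison with the shares over all genes. The table holds 55335 genes, of which 14107 passed the filter on low counts, and all 10 members passed it. The groups were 3 wild-type (WT) mice and 3 Trmt6-/- mice, all given DSS, with no untreated animals analysed here. Trmt6 encodes a subunit of the enzyme complex that places 1-methyladenosine in tRNA. The age and sex of the animals, the construction of the Trmt6 allele, the DSS dose and the intestinal segment are not given in the sources used here. The series title concerns the role of Trmt6 in susceptibility to colitis through translation, whereas these libraries measure transcript abundance.

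Death receptors are surface proteins that, on binding a ligand of the TNF family, can lead to an intracellular complex that contains the adaptor FADD. That complex activates caspase-8, which starts apoptosis, and the caspase-like protein cFLIP, encoded by Cflar, limits this step. Caspase-8 also cleaves RIPK1 and RIPK3, and where it is inactive these kinases bind each other and RIPK3 phosphorylates MLKL, which permeabilises the plasma membrane in necroptosis. ZBP1, a sensor of left-handed (Z-form) nucleic acid, can engage RIPK3 directly, and AIM2 senses cytosolic double-stranded DNA and assembles an inflammasome. In the gut epithelium of mice, loss of Casp8 or Fadd is known to provoke necroptosis and inflammation, with Paneth cells among the cells lost.

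Library totals ran from 15213972 to 16972758 counts. Single-library values are listed first for the libraries labelled Trmt6-/-, always in the order KO72, KO73, KO75, and then, after the word against, for WT185, WT186, WT187. Trmt6 itself was higher, not lower, in all 3 libraries labelled Trmt6-/- than in any WT library. It stood at 39.8, 34.2 and 36.2 CPM (counts scaled to a common library size) against 30.9, 18.7 and 23.1 CPM (log2 fold change 0.60 ± 0.21 SE, edgeR adjusted p = 0.335). Its unadjusted edgeR p was below 0.05. The targeted transcript thus went against the label, so groups are called by their labels and every direction below rests on them. Gene-level counts cannot show which Trmt6 exons were read. Epithelial markers were abundant. The summed level of 8 genes (Epcam, Cdh1, Vil1, Krt8, Krt18, Krt19, Krt20 and Cldn7) lay between 11241 and 14837 CPM in every library. Markers of most non-epithelial cell types were scarce, with summed levels of at most 34.7 CPM for 10 monocyte and macrophage genes, 9.11 CPM for 8 neutrophil genes and 15.2 CPM for 7 fibroblast genes. The sums were at most 2.65 CPM for 6 smooth muscle genes and 8.52 CPM for 6 endothelial genes. Of the neutrophil genes Mpo and Elane were at 0 in all 6 libraries, and S100a8 and S100a9 were at 0 in the WT libraries. The 12 T and NK cell genes were more abundant and varied within both groups, at 88.6, 247 and 744 CPM against 276, 397 and 1027 CPM. In such bulk libraries, fewer cells of a type and less RNA per cell cannot be told apart.

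Ripk3, Aim2 and Casp8 were each higher in all 3 libraries labelled Trmt6-/- than in any WT library, with group means 1.95-fold, 3.09-fold and 1.56-fold higher. Fadd was lower in all 3, and the other 6 members overlapped between the groups. None of the 10 members passed the test at an adjusted p below 0.05 in edgeR's quasi-likelihood test, where 0.0425% of all genes tested passed. At an unadjusted p below 0.05 there were 3 members, all higher (Ripk3, Aim2 and Casp8), and 0 lower. Over all genes tested 12.1% lay below that p, 6.15% higher and 5.94% lower. Groups without overlap were seen for 4 of the 10 members, against 18.7% of all genes tested, with 9.7% higher and 9.03% lower. The median log2 fold change of the members was 0.062, with 5 above 0 and 5 below, and that of all genes tested was -0.033. DESeq2, run as an alternative, called Ripk3 (adjusted p = 0.00864) and Aim2 (adjusted p = 0.00836) among the 4.44% of all genes that it called. Beside these differences, 6 of 6 Paneth cell genes (median log2 fold change 0.58) and 8 of 8 epithelial genes (median 0.20) were above 0, as were 6503 of the 14107 genes tested, and none of these markers was below an unadjusted p of 0.05. The part of these cells in the member values was not tested.

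**Figure D1:**
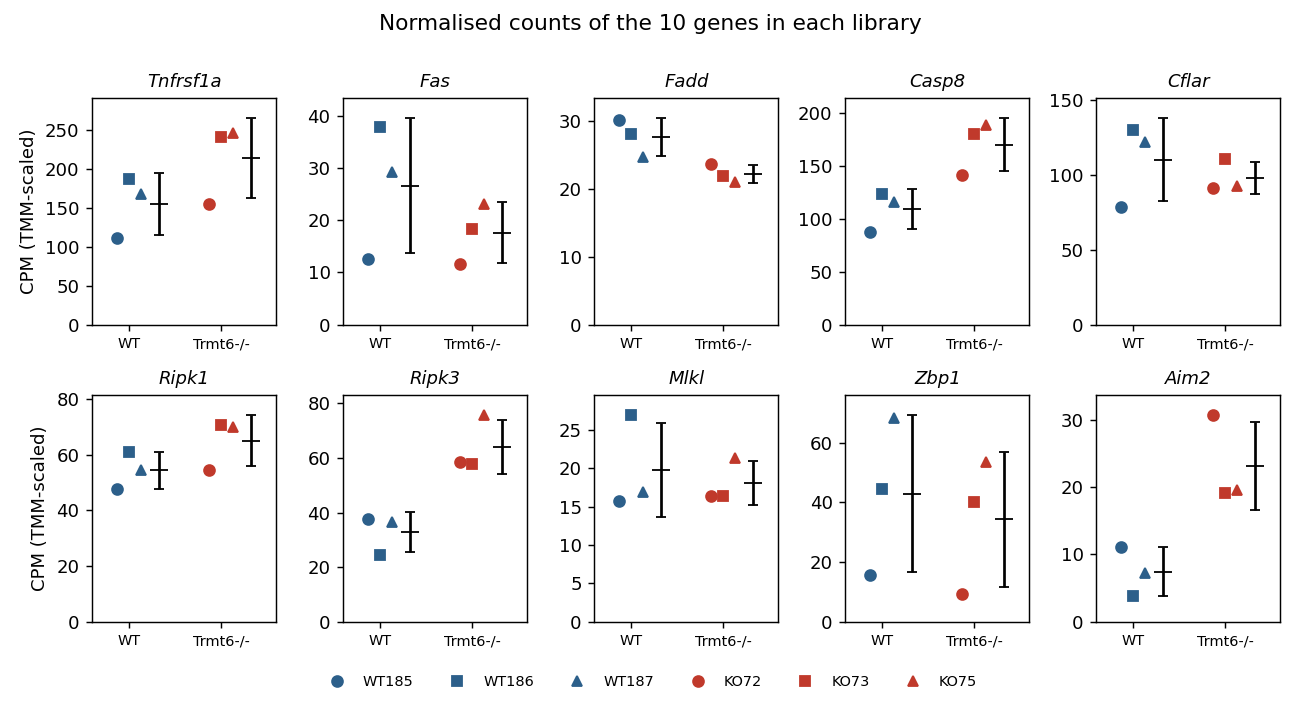
Normalised counts (CPM on TMM-scaled library sizes, linear axis from 0) of each gene in the 3 WT libraries (blue) and the 3 libraries labelled Trmt6-/- (red), with a symbol for each library and the mean ± SD of each group in black beside the points. Casp8, Ripk3 and Aim2 sit above every WT library in all 3 red points, Fadd sits below, and Zbp1 spreads from 9.37 to 68.1 CPM with both colours intermixed.

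Promoter windows of the 4 genes whose groups did not overlap are shown because they are the members that separated by label. Each lies before a RefSeq start of the gene. For Aim2 and Casp8 that start and its window lie inside the span of the gene in the deposited table, which begins further upstream, and whether that start was the one used was not tested. The windows are from RefSeq (GRCm38.p6, the build of the deposited coordinates), cut to the bases outside annotated exons and printed 5′ to 3′ on the strand of the gene, with motif matches in capitals.
Ripk3 (minus strand, chr14:55788866-55789107): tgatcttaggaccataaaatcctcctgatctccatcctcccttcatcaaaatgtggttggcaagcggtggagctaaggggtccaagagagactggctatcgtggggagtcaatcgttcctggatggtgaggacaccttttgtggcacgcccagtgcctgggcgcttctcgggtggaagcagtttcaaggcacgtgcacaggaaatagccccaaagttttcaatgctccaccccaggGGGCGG
Casp8 (plus strand, chr1:58802252-58802501): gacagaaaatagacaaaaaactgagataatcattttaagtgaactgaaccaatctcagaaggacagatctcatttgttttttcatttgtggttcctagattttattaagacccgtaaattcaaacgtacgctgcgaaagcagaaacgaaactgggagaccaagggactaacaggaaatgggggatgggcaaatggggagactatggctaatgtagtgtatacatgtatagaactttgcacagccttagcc
Aim2 (plus strand, chr1:173420354-173420570): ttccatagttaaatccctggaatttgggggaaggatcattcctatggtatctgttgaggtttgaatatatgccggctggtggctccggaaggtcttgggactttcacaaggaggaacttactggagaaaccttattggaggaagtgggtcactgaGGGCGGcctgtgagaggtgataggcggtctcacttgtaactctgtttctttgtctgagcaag
Fadd (minus strand, chr7:144582464-144582691): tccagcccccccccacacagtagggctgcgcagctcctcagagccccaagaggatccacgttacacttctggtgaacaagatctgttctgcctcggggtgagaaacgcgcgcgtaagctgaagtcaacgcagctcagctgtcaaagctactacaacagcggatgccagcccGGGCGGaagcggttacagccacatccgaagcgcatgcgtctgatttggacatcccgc
The capitals mark the GC box GGGCGG, the only one of 5 motifs searched that these 4 windows hold. Both strands of the 250 bases before each start were searched. The GC box begins 14 bases before the Ripk3 start, 95 bases before the Aim2 start and 79 and 14 bases before the Fadd start (the last of these in bases not printed), and no match lies in the Casp8 window. It occurs in 32.7% of the 32851 promoter windows of the same length. The interferon-stimulated response element core (GAAA repeated after a gap of 2 bases; 2.98% of all windows), the NF-kappaB core (GGG and TTTCC with a gap of 2 bases between; 1.41%) and the ATF4 response core TGATGNAA (3.45%) occur in none of the 10 windows of the 9 members matched. The STAT core TTCNNNGAA (7.02%) occurs in the windows of Fas, Tnfrsf1a and 1 of the 2 Ripk1 starts. Zbp1 had no entry among the windows. The GC content of the windows was 54.0% for Ripk3, 39.6% for Casp8, 49.6% for Aim2 and 60.4% for Fadd, against a median of 52.4% over all windows.

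With all 6 libraries, both receptors overlapped between the groups. Tnfrsf1a (ENSMUSG00000030341.17; chromosome 6, 125349362 to 125362484), the main receptor for TNF, stood at 155, 241 and 246 CPM against 111, 187 and 168 CPM. KO72 lay below WT186 and WT187, so the groups overlapped, with a log2 fold change of 0.46 ± 0.27 (SE; edgeR adjusted p = 0.575). Fas (ENSMUSG00000024778.13; chromosome 19, 34290666 to 34327772), the receptor for FAS ligand, stood at 11.6, 18.4 and 23.1 CPM against 12.6, 38.0 and 29.4 CPM. Its lowest values in the groups, KO72 and WT185, were close to each other, and WT186 was the highest, with a log2 fold change of -0.59 ± 0.43 (edgeR adjusted p = 0.674). The spread of Fas within the WT group (26.6 ± 12.9 CPM, SD, n = 3) was wider than its difference from the group labelled Trmt6-/- (17.7 ± 5.78 CPM, SD, n = 3).

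Of the complex below the receptors, the caspase was higher, the adaptor lower and the inhibitor overlapping. Casp8 (ENSMUSG00000026029.14; chromosome 1, 58795374 to 58847503), the initiator caspase, stood at 142, 181 and 189 CPM against 88.1, 124 and 116 CPM. The lowest library labelled Trmt6-/- lay above the highest WT library, and the gene differed by a log2 fold change of 0.64 ± 0.19 (unadjusted p = 0.0135, edgeR adjusted p = 0.275). Fadd (ENSMUSG00000031077.7; chromosome 7, 144577318 to 144582463), the adaptor that recruits the caspase, stood at 23.6, 21.9 and 20.9 CPM against 30.1, 28.04 and 24.6 CPM. The groups were separated by about 1 CPM between KO72 and WT187, and the log2 fold change was -0.32 ± 0.16 (unadjusted p = 0.0813, edgeR adjusted p = 0.498). The antisense gene Faddos shares 6.12% of the Fadd exon bases, and without strand in the counting, reads within those shared bases cannot be told apart by gene. The effect of those bases on the Fadd count was not tested. Cflar (ENSMUSG00000026031.15; chromosome 1, 58711508 to 58758884), the inhibitor gene, lies 36489 bases from Casp8 on the same strand. It stood at 91.4, 110.5 and 92.5 CPM against 78.7, 130.1 and 122 CPM. WT185 was the lowest of all 6 and the other WT libraries the highest, with a log2 fold change of -0.17 ± 0.22 (edgeR adjusted p = 0.829).

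Among the necroptosis genes the kinase Ripk3 separated by label, and its partner Ripk1 and its substrate Mlkl overlapped. Ripk3 (ENSMUSG00000022221.14; chromosome 14, 55784995 to 55788865) stood at 58.6, 57.8 and 75.6 CPM against 37.7, 24.3 and 36.6 CPM. Its lowest value in the libraries labelled Trmt6-/- (57.8 CPM) was well above the highest in WT (37.7 CPM). The log2 fold change was 0.96 ± 0.21, with the smallest unadjusted p of the 10 members (0.00299; edgeR adjusted p = 0.190). Ripk1 (ENSMUSG00000021408.15; chromosome 13, 34002363 to 34037147), the kinase recruited to the TNF receptor, stood at 54.5, 70.7 and 69.8 CPM against 47.7, 60.9 and 54.5 CPM. KO72 and WT187 were at the same level, and the log2 fold change was 0.26 ± 0.16 (edgeR adjusted p = 0.614). Exons of Serpinb6a, on the opposite strand, and Gm17084 share 9.01% of the Ripk1 exon bases. Mlkl (ENSMUSG00000012519.14; chromosome 8, 111311797 to 111338177), the executor of necroptosis, stood at 16.4, 16.4 and 21.3 CPM against 15.7, 26.9 and 16.9 CPM. All libraries but WT186 lay between 15.7 and 21.3 CPM. Its log2 fold change of -0.13 ± 0.26 (edgeR adjusted p = 0.895) turned to 0.16 without WT186.

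The nucleic acid sensors differed from each other in how they were distributed. Aim2 (ENSMUSG00000037860.15; chromosome 1, 173350879 to 173466040) stood at 30.6, 19.1 and 19.6 CPM against 11.2, 3.89 and 7.31 CPM. KO72 and WT185 were the highest of their groups, and the order within both groups was that of the summed Paneth cell genes (7389, 3766 and 4682 CPM against 8259, 973 and 3108 CPM). The log2 fold change of 1.63 ± 0.41 was the largest of the 10 members (unadjusted p = 0.00543, edgeR adjusted p = 0.221). Zbp1 (ENSMUSG00000027514.14; chromosome 2, 173206612 to 173218923) stood at 9.37, 40.2 and 53.5 CPM against 15.8, 44.6 and 68.1 CPM. Here KO72 and WT185 were the lowest, and libraries of the same group differed more than the group means of 34.3 ± 22.6 and 42.8 ± 26.2 CPM (SD, n = 3). The log2 fold change was -0.32 ± 0.70 (edgeR adjusted p = 0.911), and it turned to 0.15 without KO72 and to 0.19 without WT187. The order of the libraries within each group was that of the summed T and NK cell genes given above, whose part in the Zbp1 values was not tested.

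**Figure D2:**
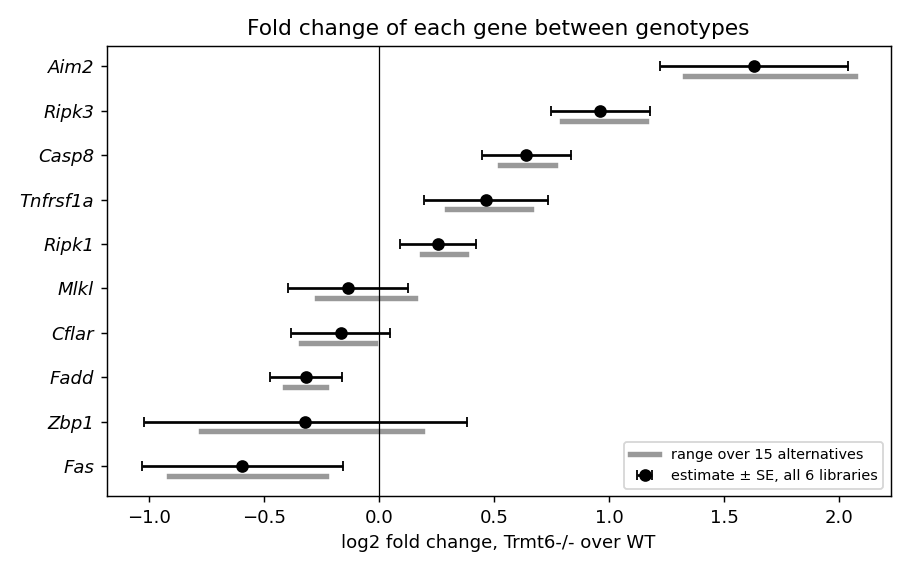
Log2 fold change of each gene (libraries labelled Trmt6-/- over WT), with black points and bars for the edgeR estimate ± SE from all 6 libraries and grey bars for the range over 15 alternative scalings, filters, tests and left-out libraries. The grey bars of Aim2, Ripk3, Casp8, Tnfrsf1a and Ripk1 stay above 0, those of Fas, Fadd and Cflar stay below, and those of Mlkl and Zbp1 cross 0.

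To compare levels between genes, CPM were divided by the summed exon length of each gene (CPM per kb), and values are mean ± SD over the 6 libraries. The TNF receptor gene Tnfrsf1a was the highest at 71.2 ± 20.1 CPM per kb, followed by Casp8 at 48.3 ± 13.4 and Ripk3 at 21.1 ± 8.20 CPM per kb. Zbp1 (10.9 ± 6.35), Fas (10.7 ± 4.96), Mlkl (8.22 ± 1.91), Cflar (8.22 ± 1.57), Ripk1 (7.15 ± 1.102) and Fadd (6.36 ± 0.912 CPM per kb) followed. Aim2 was the lowest at 4.37 ± 2.80 CPM per kb. Between neighbours in this order, the intervals of mean ± SD were apart for Casp8 and Ripk3 and overlapped for every other pair. These intervals pool both groups and do not pair genes within a library. Tnfrsf1a, whose interval overlapped that of Casp8, lay above Casp8 in each library. The exon length of Cflar (12669 bases) joins the exons of all annotated transcripts, and length-scaled levels depend on that length. By label, Ripk3 stood at 27.9 ± 4.37 against 14.3 ± 3.25 CPM per kb in WT (SD, n = 3), and Mlkl at 7.83 ± 1.24 against 8.61 ± 2.67 CPM per kb.

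Ratios between partners within a library do not depend on how libraries are scaled, and 4 were compared. The ratio of Cflar to Casp8, the inhibitor over its target, was 0.147, 0.140 and 0.112 (CPM per kb over CPM per kb) against 0.204, 0.2395 and 0.2398. It was lower in all 3 libraries labelled Trmt6-/-, by 0.78 on the log2 scale (difference -0.78). The ratio of Ripk3 to Ripk1 was 3.92, 2.98 and 3.94 against 2.88, 1.45 and 2.44, a log2 difference of 0.72 that was 0.43 without WT186. The ratio of Mlkl to Ripk3 was 0.278, 0.2825 and 0.281 against 0.414, 1.101 and 0.460. The 3 libraries labelled Trmt6-/- were nearly equal in that ratio, and the log2 difference of -1.08 was -0.64 without WT186. These 3 ratios separated the groups, each with a two-sided exact permutation p of 0.10, the smallest that 3 against 3 libraries can give (0.133 after Benjamini-Hochberg adjustment over the 4 ratios). The ratio of Zbp1 to Adar, which encodes an RNA-editing enzyme that restrains ZBP1, did not separate them (log2 difference -0.26, exact permutation p = 0.80). With 3 libraries a group this exact test cannot reach p below 0.05. The 3 ratios that separated each hold Ripk3 or Casp8, which also separated the groups alone. How often ratios of other genes separate the groups was not computed.

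**Figure D3:**
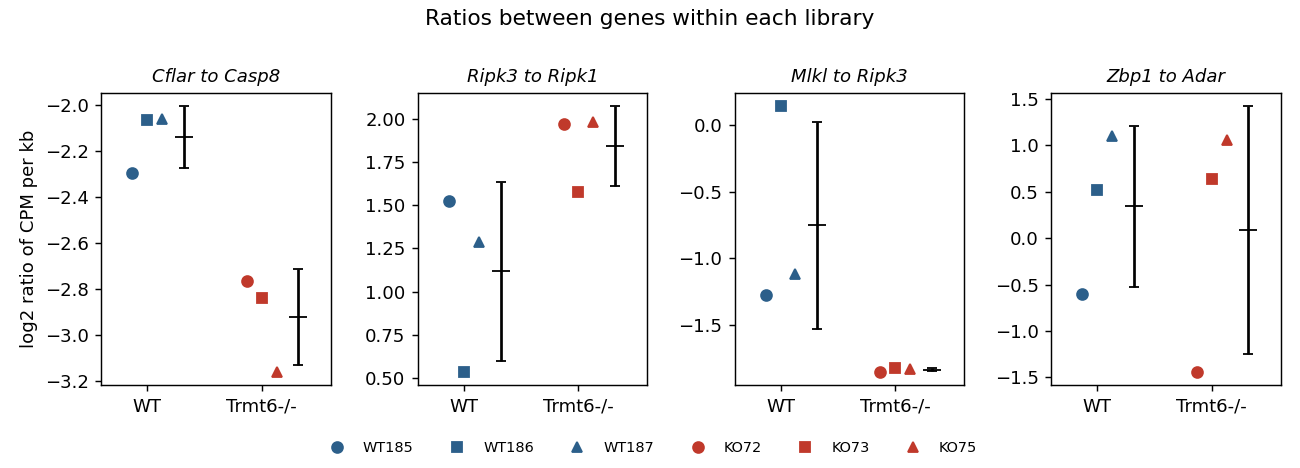
Log2 ratio of length-scaled counts (CPM per kb) of Cflar to Casp8, Ripk3 to Ripk1, Mlkl to Ripk3 and Zbp1 to Adar in each WT library (blue) and each library labelled Trmt6-/- (red), with mean ± SD of each group in black. The first 3 ratios do not overlap between groups, and WT186 lies apart from the other WT libraries for Ripk3 to Ripk1 and Mlkl to Ripk3.

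The members also varied in a shared order within the groups. Ripk1, Mlkl, Zbp1, Casp8, Cflar, Fas and Tnfrsf1a, 7 of the 10 members, were lowest of their group in both KO72 and WT185, as were 23.4% of all genes tested. Aim2 and Fadd were highest of their group in both, as were 24.5% of all genes tested. These 2 libraries had the most Fabp6 transcript, a marker of the ileum, in their groups (341, 267 and 16.7 CPM against 543, 2.59 and 0.120 CPM). They also had the least transcript of the lactase gene Lct in their groups (119, 771 and 664 CPM against 756, 3192 and 2592 CPM). Their T and NK cell sums were the lowest of each group, and their summed levels of 6 Paneth cell genes the highest. The part of intestinal position, lymphocytes or Paneth cells in the member values was not tested. Without KO72 and WT185 together, an alternative chosen after seeing the data, Ripk3 (log2 fold change 1.16), Aim2 (1.81) and Casp8 (0.65) had differences at least as large as with all libraries. Among the libraries left, KO73 and KO75 had higher Fabp6 and Paneth cell sums and lower Lct than WT186 and WT187. That alternative therefore cannot tell the label apart from these markers. Across the 6 libraries the closest member pair was Ripk1 and Tnfrsf1a (Pearson r = 0.98 of log2 CPM, which share the libraries and their scaling), and Casp8 and Fadd were the most opposed (r = -0.93).

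**Figure D4:**
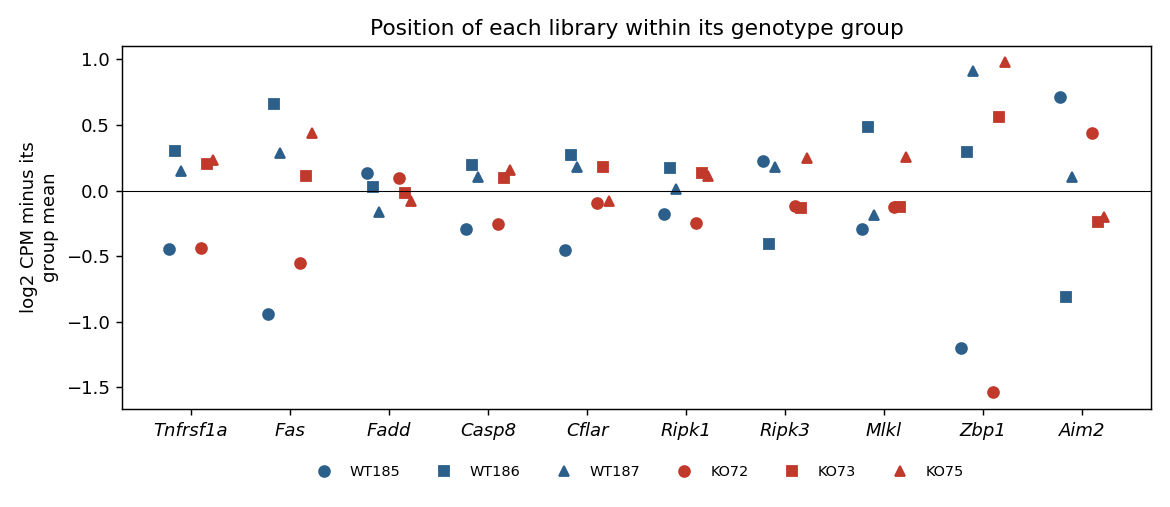
Log2 CPM of each gene minus the mean of its genotype group, for the 3 WT libraries (blue) and the 3 libraries labelled Trmt6-/- (red), with circles for WT185 and KO72. The circles are at the bottom of both groups for Tnfrsf1a, Fas, Casp8, Cflar, Ripk1, Mlkl and Zbp1 and at the top for Fadd and Aim2, with Zbp1 the most spread.

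The other genes of the pathway were read from 8 lists. No gene of any list passed an adjusted p below 0.05 in edgeR, so the counts below are of unadjusted p below 0.05, to be read against 6.15% higher and 5.94% lower over all genes tested. Of the 6 death ligand genes tested (of 8 listed), 0 lay below that p in either direction, and 1 of them was abundant. Tnfsf10, which encodes the ligand TRAIL, stood at 86.1 ± 38.4 against 135 ± 40.4 CPM (SD, n = 3; log2 fold change -0.65 ± 0.38). Tnfsf15 (0.81 ± 0.58) and Tnfsf12 (-0.66 ± 0.68) were at most 1.98 CPM in any library, as was Tnf, the ligand of Tnfrsf1a, at 0.136 to 1.68 CPM. FAS ligand, Fasl, lay between 1.02 and 7.40 CPM. Of 8 further TNF-family receptors tested, 1 was higher and 2 were lower. The TWEAK receptor gene Tnfrsf12a stood at 6.91 ± 1.66 against 3.28 ± 0.883 CPM (1.07 ± 0.34), the LIGHT receptor gene Tnfrsf14 at 23.7 ± 4.89 against 39.3 ± 3.61 CPM (-0.73 ± 0.19) and the decoy receptor gene Tnfrsf23 at 1.06 ± 0.217 against 5.30 ± 3.67 CPM (-2.32 ± 0.58).

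Of 24 genes tested of the signalling complex of the TNF receptor and its ubiquitin control, 1 was higher and 0 lower. Their log2 fold changes ran from -0.51 to 0.49, with a median of 0.046. Groups without overlap were seen for 5 of the 24 (3 higher and 2 lower), against 18.7% of all genes tested. Tab2, an adaptor of the kinase TAK1, stood at 160 ± 25.2 against 114 ± 11.7 CPM (0.49 ± 0.17), Rnf31, which encodes a subunit of the linear ubiquitin ligase, had a log2 fold change of -0.51 ± 0.22, and the adaptor gene Tradd 0.36 ± 0.17. Of 19 genes of the apoptotic list tested, 1 was higher and 2 were lower (median 0.028). Casp6, which encodes an apoptotic caspase, stood at 24.9, 47.9 and 111 CPM against 138, 305 and 197 CPM. It was lower in all 3 libraries labelled Trmt6-/-, opposite to Casp8, with a log2 fold change of -1.80 ± 0.56 (unadjusted p = 0.0155, edgeR adjusted p = 0.283). Pmaip1, which encodes the BH3-only protein NOXA, stood at 77.0, 123 and 116 CPM against 19.7, 50.8 and 55.3 CPM, higher in all 3 (1.33 ± 0.40; edgeR adjusted p = 0.274).

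Of 21 necroptosis regulators outside the 10 members, 0 were higher and 3 lower (median -0.0097). The total of 3 was 0 without KO72, KO73 or WT187, 1 without KO75, 2 without WT186 and 5 without WT185. Ripk4, a relative of Ripk1 known for its role in keratinocytes, stood at 40.6 ± 0.780 against 52.8 ± 5.07 CPM (-0.38 ± 0.13). Tlr3, the receptor for double-stranded RNA that can start necroptosis through TICAM1, stood at 35.7 ± 5.50 against 49.7 ± 8.66 CPM (-0.48 ± 0.19). The chaperone gene Hsp90aa1, whose product holds RIPK kinases in a stable fold, stood at 210 ± 22.5 against 398 ± 191 CPM (-0.92 ± 0.35), with overlapping groups.

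Genes of nucleic acid sensing and of interferon lay mostly below 0, while Aim2 lay above. The Zbp1 estimate was also below 0, but it was smaller than its SE and changed direction without KO72 or WT187. Of 14 sensing genes tested, 13 were below 0, with 0 higher and 1 lower at the unadjusted p (median -0.28). Over all genes tested, 7604 of 14107 were below 0. Samhd1, a dNTP hydrolase gene, stood at 80.5 ± 6.39 against 157 ± 80.3 CPM (-0.97 ± 0.37), Rnaseh2c, of the RNase H2 complex, had a log2 fold change of -0.49 ± 0.22, and the RNA helicase gene Dhx58 -0.70 ± 0.32. Of 32 interferon signalling and interferon-induced genes tested, 1 was higher and 12 lower, with 27 below 0 and a median of -0.94. That total of 13 was 8 without WT187, 19 without WT185 and 9 to 13 without any other single library. The immunoproteasome gene Psmb9 stood at 19.9, 30.9 and 39.9 CPM against 58.7, 110 and 87.3 CPM (-1.49 ± 0.32; edgeR adjusted p = 0.180). The interferon-inducible GTPase genes Igtp (-3.06 ± 0.68) and Irgm2 (-1.94 ± 0.46) were lower in all 3 as well. The gene that was higher was Ifngr1, a subunit of the interferon-gamma receptor (0.55 ± 0.16), named after its value was seen. Beside this list, 11 of 11 T and NK cell genes tested were below 0, 1 of them at the unadjusted p, and their part in the interferon values was not tested. Of 9 genes tested of the AIM2 inflammasome output, a list that also holds other pyroptosis genes, 0 were below the unadjusted p in either direction. Their median was -0.095, with 4 above 0 and 5 below. Gsdmd, which encodes the pore protein of pyroptosis, stood at 649 ± 247 against 334 ± 187 CPM (0.96 ± 0.50), Casp4 at 36.4 ± 17.1 against 23.4 ± 6.13 CPM (0.64 ± 0.37) and Gsdme at 72.03 ± 38.03 against 31.8 ± 27.6 CPM (1.18 ± 0.73), all with overlapping groups.

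**Figure D5:**
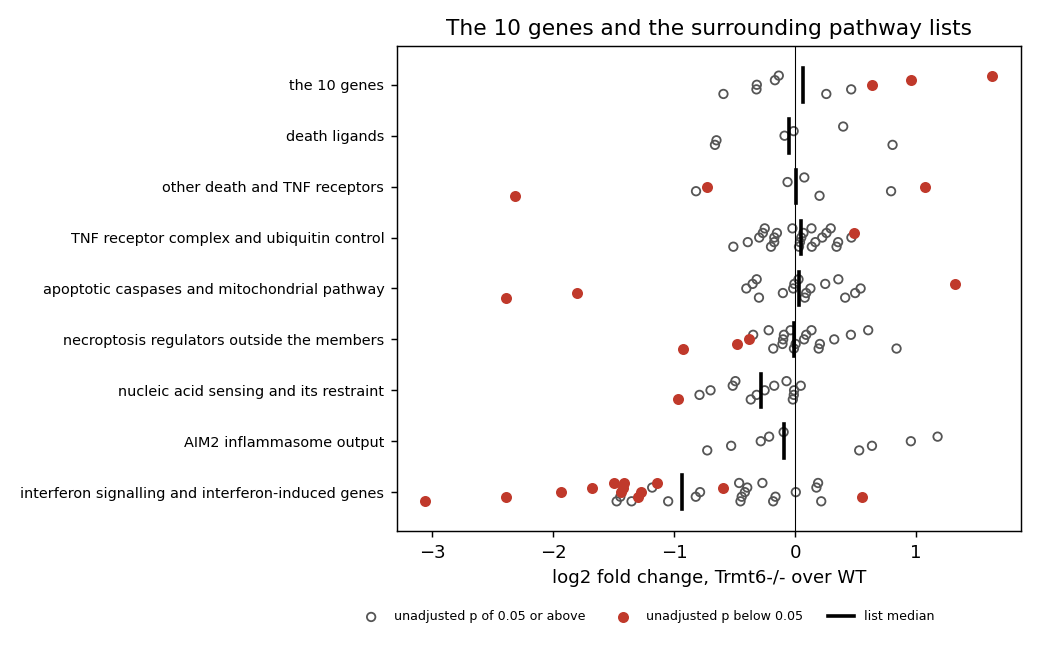
Log2 fold change (libraries labelled Trmt6-/- over WT) of every tested gene of the 10 members and of the 8 surrounding lists, each circle a gene, filled red where the unadjusted edgeR p was below 0.05, with the list median as a black bar. The medians lie near 0 except for nucleic acid sensing (-0.28) and the interferon list (-0.94), and no gene shown passed an adjusted p below 0.05.

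The genes whose pattern over the 6 libraries was most like that of Ripk3, the member with the smallest p, were Slitrk6, Stambpl1, Rps29, Rab12 and Fry, with Pearson r of 0.9928, 0.9927, 0.992, 0.9905 and 0.990 on log2(CPM + 1) among 10354 genes with a mean of at least 5 CPM. Of the members, Aim2 was the closest to Ripk3 (r = 0.91). With 6 points that share their libraries and so many genes compared, these values only describe the order.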

How the data were processed

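Counts were made by the authors with featureCounts 2.0.1 (paired reads, exons as features, GENCODE vM23), per the file headers, and are raw counts per gene. That command sets neither strandedness nor options for multimapping or overlapping reads. The submitters' processing notes name fastp, HISAT2 and mm10 without versions. Per the labels, RNA was converted to amplified cDNA, without mention of molecular identifiers. Gene lengths as deposited (unit: other) only scaled levels per length. Column names give the group and an animal, not the labels' replicate, so columns were assigned by group name. The labels say n = 3 mice a group.

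Symbols came from GENCODE M21 (GRCm38), which matched 55154 of 55335 identifiers, and member coordinates from the deposited table. Genes were filtered with filterByExpr, TMM-scaled and tested in edgeR 4.0.16 (R 4.3.3) with its two-sided quasi-likelihood F test, with genotype as the only term and Benjamini-Hochberg adjustment over 14107 genes. SE is the log2 fold change over the square root of F. Within-group chi-square per degree of freedom was at least 44.1, so replicate libraries differed beyond counting noise. On simulated counts for 14107 genes with 200 changed, the test recovered 0% of 2-fold, 52% of 4-fold and 84% of 8-fold changes at the adjusted threshold. Alternatives were RLE, upper-quartile and total scaling, no filter, 1 CPM in 3 libraries, DESeq2 1.42.0, limma-voom (limma 3.58.1), robust dispersions and left-out libraries. The members, lists and tests were chosen with earlier results of these data known. The naming rule took all members, Trmt6, the 3 genes with the smallest p of each list and the 5 closest patterns to the member with the smallest p. Other genes were named after their values were seen. Some items that the rule would name are not reported here. Lists count older and newer symbols of a gene separately. Figures were drawn with matplotlib 3.10.9.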

Additional observations from a re-analysis of the deposited data

How the results depend on the processing

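The number of genes called over the whole table was 6, and it was 0 with library totals, 159 without the low-count filter, 627 with DESeq2, 0 with limma-voom and 0 without KO72 and WT185 together, an alternative chosen after seeing the data. Genes with an unadjusted p under 0.05 numbered 1706, 1702 with library totals, 1646 with limma-voom and 1529 without those 2 libraries. The number called was 0 to 6 with a library left out, with 0 without KO73, KO75, WT186 or WT187, 2 without WT185 and 6 without KO72. The count of members called was 0 under every alternative but DESeq2, which called 2, Aim2 and Ripk3. The count of members below an unadjusted p of 0.05 was 3 to 4 under all 15 alternatives, and Ripk3, Aim2 and Casp8 were among them in each. Their log2 fold changes ran from 0.80 to 1.16, 1.33 to 2.07 and 0.53 to 0.77. The log2 fold change turned direction for Mlkl without WT186 (0.16; -0.27 to 0.16 over the left-out libraries) and for Zbp1 without KO72 (0.15) or WT187 (0.19; -0.77 to 0.19). The difference of the Zbp1 to Adar ratio turned to 0.51 without KO72, 0.12 without WT187 (-0.74 to 0.51 over the left-out libraries) and 0.036 without KO72 and WT185. Other list totals at the unadjusted p also moved. The TNF receptor complex (1) had 4 without WT185, 3 without WT186, 2 without WT187 and 0 without KO73, as well as 3 with upper-quartile scaling or library totals and 2 without the filter or without KO72 and WT185. Nucleic acid sensing (1) had 3 without WT185, 2 without KO75 or WT186 and 0 without KO72, KO73 or WT187, as well as 3 with DESeq2 or without KO72 and WT185 and 2 with library totals. The inflammasome output (0) had 2 without KO72 or KO75 and 1 without WT185, WT186 or the filter and 3 without KO72 and WT185, the apoptotic list (3) had 5 without KO72 and 2 without KO73, the other receptors (3) had 2 without KO72, and the death ligands (0) had 1 without KO75. The causes were not tested. No paired analysis was possible because the columns carry no replicate numbers. Since 0% of simulated 2-fold changes were recovered, members that did not pass may still differ.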
